A study of Mus musculus with 6 samples.

Results

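The thick ascending limb is the part of the loop of Henle that reabsorbs salt without water, and it was followed here through a set of 6 marker genes: Slc12a1, Cldn10, Ppp1r1a, Egf, Umod and Cldn16. They were chosen by symbol in the deposited table, which lists 5 of them among its 7340 genes. The table has no row for Cldn16, which was not analysed here. RNA was sequenced from 6 mouse kidney samples of wild-type animals. Ischaemia-reperfusion injury (IRI), a stop and return of the kidney's blood flow, was the only treatment in 3 of them, and 3 had IRI together with MK-8617. All 3 titles of the second group name MK8617, but the treatment entries of its replicates 2 and 3 name MK8618 and MK8619, and the titles were followed here. The series' design text speaks of tumors, where every sample is labelled as kidney. MK-8617 blocks the prolyl hydroxylase enzymes through which cells destroy hypoxia-inducible factor (HIF). All samples share the injury and the wild-type genotype, and no uninjured kidney was analysed here, so each difference is relative to IRI alone. Strain, age, dose, route and any pooling of animals are not given in the sources used here, and the time appears only as a 1d tag in the column names. The labels do not say whether replicates are separate animals, so p-values here reflect only the scatter of these samples, which may be technical.

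Cells of the thick ascending limb take up sodium, potassium and chloride from the urine through the cotransporter NKCC2, encoded by Slc12a1, and return potassium to the lumen through the channel ROMK, encoded by Kcnj1. The resulting lumen-positive voltage drives sodium, calcium and magnesium between the cells through pores made of claudins, among them the products of Cldn10, Cldn16 and Cldn19. Ppp1r1a encodes an inhibitor of protein phosphatase 1 that is switched on by the cAMP pathway. Umod encodes uromodulin, the most abundant protein of normal urine, and Egf encodes the membrane-bound precursor of epidermal growth factor, made in the thick ascending limb and in the distal convoluted tubule. The Egf transcript is known to fall after kidney injury, and low urinary EGF is used as a marker of poor tubular function.

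The set did not move as one. With MK-8617 Slc12a1, Cldn10 and Ppp1r1a fell to between 0.247 and 0.432 of their IRI means, Egf rose 4.71-fold, and Umod, the most abundant of them, was not past the threshold. The background to these calls was high, because the authors' table lists only genes with a p below 0.05 in their own comparison: of 6961 genes tested here, 74.3% were called in either direction, 35.7% higher and 38.7% lower. The 4 calls among 5 members are therefore near the background share, and what the data add is the direction, the size and the split between the members. Libraries held 16835541 to 19508497 counted reads, and members had between 187 and 47303 reads in a library.

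The windows around annotated starts of genes that moved in opposite directions are shown here because MK-8617 acts on HIF, and the letters show where a HIF-binding core lies in them. Each window runs from 250 bases before to 50 bases after a RefSeq start (GRCm38.p6). Of the 6 genes of the set 5 matched a window, and Ppp1r1a did not. Capitals mark the HIF core (ACGTG or GCGTG, either strand) or the HNF1 core (GTTAAT, either strand), and no 2 matches overlapped. HNF1 factors are transcription factors of the tubule epithelium. Slc12a1, which fell, has its window at chr2:125152350-125152649 on the plus strand. The upstream start of Egf, which rose, is at chr3:129755273-129755572 on the minus strand, and a start inside the gene is at chr3:129725037-129725336 on the same strand. Cldn10 has an upstream start at chr14:118787621-118787920 and a downstream one at chr14:118854700-118854999, both on the plus strand.
Slc12a1: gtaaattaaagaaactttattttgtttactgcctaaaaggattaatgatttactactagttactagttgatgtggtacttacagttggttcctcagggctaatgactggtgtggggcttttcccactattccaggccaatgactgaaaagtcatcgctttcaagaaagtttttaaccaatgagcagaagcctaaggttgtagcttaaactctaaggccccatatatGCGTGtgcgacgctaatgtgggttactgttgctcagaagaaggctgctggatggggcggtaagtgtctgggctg
Egf upstream start: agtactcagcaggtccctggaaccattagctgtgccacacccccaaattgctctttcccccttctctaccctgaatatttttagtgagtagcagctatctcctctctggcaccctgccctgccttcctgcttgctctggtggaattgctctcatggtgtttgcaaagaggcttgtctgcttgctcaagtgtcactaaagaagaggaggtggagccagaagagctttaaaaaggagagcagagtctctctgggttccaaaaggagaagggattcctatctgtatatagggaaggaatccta
Egf internal start: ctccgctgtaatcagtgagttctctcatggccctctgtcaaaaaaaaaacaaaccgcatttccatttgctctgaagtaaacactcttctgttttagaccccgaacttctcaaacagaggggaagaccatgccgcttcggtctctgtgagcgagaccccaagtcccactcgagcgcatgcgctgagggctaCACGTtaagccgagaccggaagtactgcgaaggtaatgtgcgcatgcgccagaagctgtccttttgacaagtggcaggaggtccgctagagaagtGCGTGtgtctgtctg
Cldn10 upstream start: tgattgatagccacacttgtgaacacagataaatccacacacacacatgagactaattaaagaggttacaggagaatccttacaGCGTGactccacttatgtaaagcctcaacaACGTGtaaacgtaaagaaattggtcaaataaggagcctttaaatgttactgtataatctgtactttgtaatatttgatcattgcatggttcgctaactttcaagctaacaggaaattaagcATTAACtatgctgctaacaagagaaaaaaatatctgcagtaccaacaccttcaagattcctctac
Cldn10 downstream start: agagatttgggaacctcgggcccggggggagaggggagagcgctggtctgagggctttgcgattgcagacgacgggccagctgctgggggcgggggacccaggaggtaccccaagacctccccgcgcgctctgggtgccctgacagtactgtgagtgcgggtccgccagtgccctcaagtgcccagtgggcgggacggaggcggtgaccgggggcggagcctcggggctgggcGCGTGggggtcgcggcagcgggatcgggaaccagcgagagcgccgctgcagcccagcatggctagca
The HIF core occurred in 1 copy in the Slc12a1 window, in 2 copies at the Cldn10 upstream start and in 1 at its downstream start. At Egf the upstream window held 0 copies and the internal window 2. The windows of Umod and Cldn16, not printed, held 0. The HNF1 core was found once in the Cldn10 upstream window and once in that of Umod, and the nuclear receptor core AGGTCA in none of the 7 windows. Among 32851 RefSeq windows of the same length, 43.8% held the HIF core, 7.1% the HNF1 core and 16.3% AGGTCA. The HIF core was seen at starts of Slc12a1 and Cldn10, which fell, and at an internal start of Egf, which rose. Ppp1r1a, which also fell, could not be examined. At a share of 43.8% over all windows such matches are common. A match describes these letters only.

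Slc12a1 (ENSMUSG00000027202, GRCm38 chromosome 2, 125152505 to 125230002, plus strand) was read at 3527.5, 2347.2 and 4389.4 normalised reads in IRI replicates 1, 2 and 3. With MK-8617 the values were 1003.0, 1144.1 and 914.5, again in replicate order. Normalised reads are the authors' gene counts divided by 1 size factor per library. The lowest IRI library still lay above the highest MK-8617 library, and the groups did not overlap. That was so for 92.5% of the genes tested, for 47.6% with MK-8617 lower and for 44.8% with MK-8617 higher. The means were 3421.4 ± 1025.2 and 1020.5 ± 115.8 (SD, n = 3 per group), 3.35 times higher with IRI alone. On the log2(value + 1) scale the change was -1.7 ± 0.21 (SE, 95% interval -2.17 to -1.24), with an adjusted p of 0.000674 in limma. Fewer cells of the segment and less RNA per cell cannot be told apart in whole-kidney RNA.

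Cldn10 (ENSMUSG00000022132, GRCm38 chromosome 14, 118787908 to 118875489, plus strand) encodes a claudin with alternative N-terminal parts, of which one form makes a cation pore in the thick ascending limb and another an anion pore in the proximal tubule. Its normalised reads were 1004.2, 1278.8 and 523.4 with IRI alone, in replicate order, and 191.6, 283.9 and 218.0 with MK-8617. Replicate 3 was the lowest of the IRI libraries, although the same library was the highest for Slc12a1, and it still lay above every MK-8617 library. The change was -1.94 ± 0.3 (SE, 95% interval -2.61 to -1.26, adjusted p = 0.00197 in limma), from a mean of 935.5 ± 382.4 to 231.2 ± 47.5 (SD, n = 3 per group). Reads were counted per gene, so the forms that begin at the Cldn10 starts printed above cannot be separated.

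Ppp1r1a (ENSMUSG00000022490, GRCm38 chromosome 15, 103530279 to 103538003, minus strand) had 1278.7, 917.2 and 1410.1 normalised reads in the IRI libraries and 476.4, 615.8 and 465.7 with MK-8617. The groups did not overlap, and IRI replicate 2 came closest to the MK-8617 libraries, as it did for Slc12a1. The mean was 1202.0 ± 255.2 with IRI alone and 519.3 ± 83.7 with MK-8617 (SD, n = 3 per group), a change of -1.2 ± 0.18 (SE, 95% interval -1.6 to -0.8, adjusted p = 0.00164 in limma).

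Egf (ENSMUSG00000028017, GRCm38 chromosome 3, 129677565 to 129755316, minus strand) went the other way. With IRI alone it stood at 393.7, 229.5 and 448.6 normalised reads, and with MK-8617 at 2154.6, 1139.8 and 1756.6, each in replicate order. Every MK-8617 library was above every IRI library, and MK-8617 replicate 2 was the lowest of its group. From 357.3 ± 114.0 to 1683.7 ± 511.3 (SD, n = 3 per group), the change was 2.24 ± 0.28 (SE, 95% interval 1.6 to 2.88) with an adjusted p of 0.000803 in limma. Exons of Egf overlap exons of the antisense genes Gm42697 and 6330410L21Rik in the GENCODE annotation. The library kit is not described in the labels as keeping the strand, so reads from the overlaps cannot be assigned. Neither antisense gene was among the listed genes.

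Umod (ENSMUSG00000030963, GRCm38 chromosome 7, 119462711 to 119479282, minus strand) had 35706.4, 21673.5 and 36518.8 normalised reads with IRI alone and 29584.4, 48959.9 and 50299.2 with MK-8617. The groups overlapped, since MK-8617 replicate 1 lay below IRI replicates 1 and 3. Its change was 0.46 ± 0.25 (SE, adjusted p = 0.282 in limma), and the 95% interval of -0.11 to 1.02 spans both a small fall and a rise. In the authors' deposited table Umod has a log2 fold change of 0.456 and an adjusted p of 0.118. An exon of Umod also overlaps an antisense gene, Gm44588, which was not among the listed genes.

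**Figure D1:**
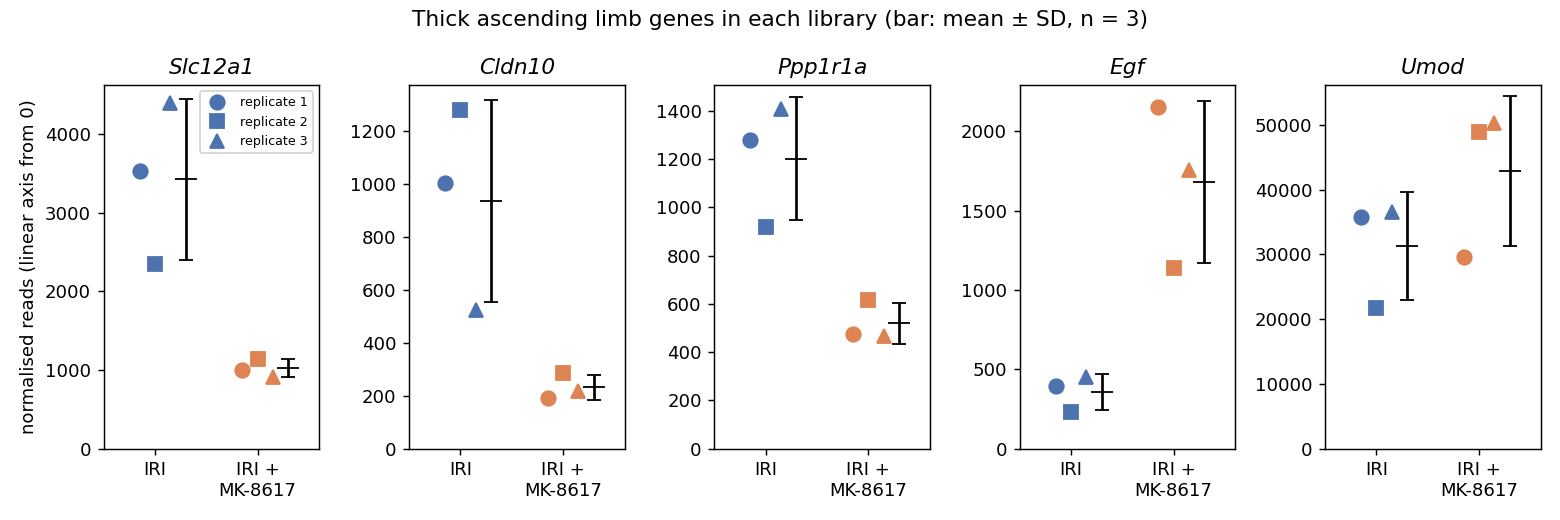
Normalised reads (vertical axes, linear from 0, a scale of its own for each gene) of the 5 listed thick ascending limb genes in 3 IRI libraries (blue) and 3 IRI with MK-8617 libraries (orange); symbols give the replicate number and black bars the mean ± SD. Slc12a1, Cldn10 and Ppp1r1a are lower in every MK-8617 library, Egf is higher in every one, and Umod overlaps between the groups.

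Levels of different genes were compared per length, in FPKM as the authors computed it. With IRI alone the order of the medians was Umod (730.3 FPKM), Ppp1r1a (55.3), Slc12a1 (34.6), Cldn10 (21.9) and Egf (1.97). With MK-8617 it was Umod (981.2), Ppp1r1a (20.3), Slc12a1 (9.66), Egf (8.7) and Cldn10 (4.7). Within the IRI group Slc12a1 ranged from 22.9 to 42.7 FPKM and Cldn10 from 11.3 to 27.8, so these neighbours in the order overlapped. With MK-8617 Egf ranged from 5.6 to 10.6 FPKM, so that its highest library lay above the lowest Slc12a1 library (8.86) and its lowest library below the highest Cldn10 library (6.07). Umod stood among the 66 highest of the listed genes by FPKM in each of the 6 libraries, so the segment's defining secretory transcript was plainly present in both groups. The FPKM of Egf rests on 11275 bases of exons of all its annotated transcripts, of which the longest coding one has 4761 bases. Its level per length is therefore low by construction, which does not touch the comparison between groups.

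Ratios between the genes inside a library do not depend on the scaling of that library. Egf stood at 0.0571, 0.05 and 0.0522 of the FPKM of Slc12a1 in IRI replicates 1, 2 and 3, a narrow range, and at 1.1, 0.509 and 0.982 in the MK-8617 libraries. The mean ratio was 16.3 times higher with MK-8617. For Umod over Slc12a1 the FPKM ratio was 21.1, 19.3 and 17.4 with IRI alone and 61.5, 89.3 and 115.0 with MK-8617, 4.6 times higher in the mean. These ratios combine the changes already given and are a description, not a further test. Slc12a1 over Cldn10 was 1.58, 0.825 and 3.77 in the IRI libraries and 2.35, 1.81 and 1.89 with MK-8617, so the groups overlapped and the IRI libraries were the more scattered.

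**Figure D2:**
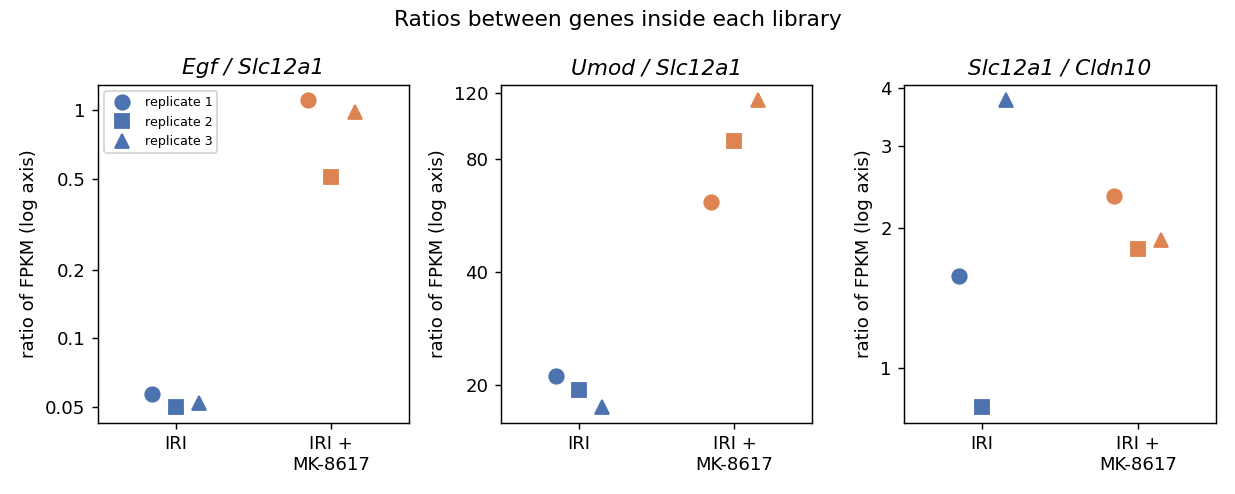
Ratio of FPKM between gene pairs inside each library (vertical axes, log scale) for the 3 IRI (blue) and 3 IRI with MK-8617 (orange) libraries; symbols give the replicate number. The ratio of Egf to Slc12a1 lies at 0.05 to 0.0571 with IRI alone and at 0.509 to 1.1 with MK-8617, while that of Slc12a1 to Cldn10 overlaps between the groups.

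Among the IRI libraries, Slc12a1, Ppp1r1a, Egf and Umod shared an order: replicate 2 was the lowest and replicate 3 the highest for each. The highest was 1.87 times the lowest for Slc12a1, 1.54 for Ppp1r1a, 1.95 for Egf and 1.68 for Umod. Cldn10 had the reverse order, with replicate 2 the highest and 2.44 times replicate 3. Among the MK-8617 libraries the order was not shared in this way: replicate 2 was the highest for Slc12a1, Cldn10 and Ppp1r1a but the lowest for Egf, and replicate 1 was the lowest for Umod. Proximal tubule markers also set IRI replicate 3 apart. Relative to the mean of all 6 libraries, the median of 14 listed proximal tubule genes was at -0.27, -0.22 and -1.16 (log2) in IRI replicates 1, 2 and 3. Cldn10 was at 1.17, 1.51 and 0.23 on the same scale. In MK-8617 replicates 1, 2 and 3 the proximal tubule median was at 0.7, 0.42 and 0.59. There Cldn10 was at -1.22, -0.65 and -1.03, on the other side of the mean. The median of 13 listed macrophage and monocyte genes was at 0.66, 0.99 and 0.25 in IRI replicates 1, 2 and 3. In the MK-8617 replicates it was at -0.58, -0.48 and -0.97. For 12 listed collecting duct genes it was at 0.65, 0.5 and 0.17 with IRI alone. With MK-8617 that median was at -0.42, -0.58 and -1.0. Whether proximal tubule, macrophage or collecting duct cells contributed to the reads of Cldn10 was not tested.

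The genes whose pattern over the 6 libraries was most like that of a member were found by the root mean square difference of log2(value + 1), each gene centred on its own mean. For Slc12a1 they were Mmp15 (0.127), a membrane-type matrix metalloproteinase gene, Ltc4s (0.157), which encodes leukotriene C4 synthase, and Slc7a11 (0.184), a cystine-glutamate exchanger gene. For Ppp1r1a they were Cd164l2 (0.0952), the pseudogene Ybx1-ps2 (0.117) and Vtcn1 (0.122), which encodes an immune checkpoint ligand. Cldn10 lay closest to Crocc (0.176), a ciliary rootlet gene, Cd52 (0.199), a leukocyte surface gene, and Tyrobp (0.205), a signalling adaptor gene of myeloid cells. Egf had no equally close partner. Its nearest genes were Ndrg1 (0.265), a HIF-induced gene, Nppb (0.266), the B-type natriuretic peptide gene, and Plin2 (0.273), a lipid droplet coat gene. For Umod they were Pacs1 (0.193), Srcap (0.2) and Gpr35 (0.202). Among the members the closest pair was Slc12a1 and Ppp1r1a (0.271), and Cldn10 lay 0.656 from Slc12a1. Genes with a similar change between the groups lie close by this measure. The log2 fold changes of Ndrg1, Nppb and Plin2 were 2.13, 2.31 and 2.26, and that of Egf was 2.24. Shared regulation or a shared cell type was not tested.

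Other thick ascending limb genes were taken from lists of salt transport, tight junction and identity genes. Apart from the set they held 62 genes, of which 36 were listed and 34 tested, with 10 higher and 17 lower. Their share of calls, 79.4%, was near the 74.3% of all genes tested, and their median log2 fold change of -0.42 near the -0.31 of all genes. The counts changed when 1 library was left out. Without IRI replicate 2, 6 were higher. Without MK-8617 replicate 1, 5 were higher and 11 lower, and without MK-8617 replicate 3, 4 and 11. Calls over all genes fell too. From 2482 higher and 2691 lower they went to 1488 and 1924 without MK-8617 replicate 1. Without MK-8617 replicate 3 they were 1618 and 1935, and without IRI replicate 2, 1944 were higher.

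Salt transport genes went both ways: of 10 tested besides Slc12a1 and Ppp1r1a, 4 were higher and 4 lower. Over all genes tested the shares were 35.7% and 38.7%. Leaving out replicate 2 of IRI, or replicate 1 or 3 of MK-8617, left 2 higher, and leaving out replicate 1 of IRI or replicate 3 of MK-8617 left 2 lower. Kcnj1 had 1538.0, 1036.5 and 1747.5 normalised reads with IRI alone and 886.2, 899.7 and 719.9 with MK-8617. It fell by 0.76 ± 0.19 (SE, adjusted p = 0.016 in limma), a call lost without IRI replicate 1 or MK-8617 replicate 3. Bsnd encodes barttin, the subunit shared by the basolateral chloride channels, and went from 392.5 ± 27.9 to 183.7 ± 43.6 (SD, n = 3 per group), a change of -1.11. Fxyd2, which encodes the gamma subunit of the sodium pump, went from 29643.6 ± 1631.6 to 15940.9 ± 1944.0 (SD, n = 3 per group), with no overlap. The members that rose included Slc9a3, the apical sodium-proton exchanger gene that the proximal tubule also expresses. Slc9a3 went from 911.6 ± 186.1 to 3468.2 ± 611.2 (SD, n = 3 per group). The potassium channel gene Kcnj15 also rose, at 1.35 ± 0.21 (SE). Kcnj15 was lowest in IRI replicate 3, at 3078.1 normalised reads against 5713.8 and 5418.6, as the proximal tubule median was. Whether proximal tubule cells contributed to its reads was not tested. Wnk4, a kinase that regulates these cotransporters, was not past the threshold (-0.4, adjusted p = 0.0885), and its downstream kinase gene Oxsr1 was at 0.41, a call lost in 9 of 18 alternatives. Avpr2, the vasopressin receptor gene, was listed but too low to be tested, with at most 4.79 normalised reads in a library.

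Tight junction genes other than Cldn10 were lower in 6 of 10 tested and higher in 2, against 38.7% and 35.7% of all genes tested. Their median log2 fold change was -0.49, against -0.31 for all genes. With MK-8617 replicate 1 left out 3 were lower and 0 higher, 0 were higher without MK-8617 replicate 3, and 1 was higher without either IRI replicate 1 or IRI replicate 2. Cldn19, which encodes the partner of the Cldn16 product in the magnesium and calcium pore, had 382.4, 322.4 and 338.4 normalised reads with IRI alone and 138.3, 164.4 and 201.0 with MK-8617, a change of -1.06 ± 0.17 (SE). Cgn, the gene of the junction adaptor cingulin, went from 1256.9 ± 65.6 to 626.2 ± 111.4 (SD, n = 3 per group). Cldn1, a claudin gene of the glomerular parietal epithelium, was at -1.26 ± 0.28 (SE), with IRI replicate 3 (3934.1 normalised reads) well above the other two (2098.3 and 1990.2). The junction scaffold gene Tjp1 rose by 0.52 ± 0.13 and Cldn12 by 0.42 ± 0.1 (SE). The call of Tjp1 needed replicates 1 and 2 of IRI and replicates 1 and 3 of MK-8617, and it was lost when trends on gene length and GC content were taken out. That of Cldn12 needed MK-8617 replicates 1 and 3, and was also lost in the blocked fit with those trends taken out.

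Identity genes also went both ways. Of 14 tested besides Egf and Umod, 4 were higher and 7 lower, against 35.7% and 38.7% of all genes tested. The number higher was 2 when MK-8617 replicate 2 or 3 was left out. Among the transcription factor genes of the loop of Henle, Irx1 and Irx2 had changes of -0.76 ± 0.17 and -0.65 ± 0.16 (SE), and Pou3f3, with 1504.9 ± 26.5 against 1137.4 ± 24.5 normalised reads (SD, n = 3 per group), was lower by a small and even margin. Irx3, of the same homeobox family, rose from 924.4 ± 193.7 to 2086.8 ± 152.5. Kng2, a kininogen gene, rose by 0.91 ± 0.1 (SE). Sostdc1, a secreted BMP and WNT antagonist gene, went from 571.6 ± 208.1 to 224.3 ± 24.0, and Cdh16, the kidney-specific cadherin gene of all tubules, from 13305.3 ± 189.1 to 8842.3 ± 791.8 (SD, n = 3 per group). Ptgs2, the cyclooxygenase gene of the macula densa at the end of the segment, had 129.1, 193.2 and 364.7 normalised reads with MK-8617 against 89.0, 90.2 and 55.6. Its call needed MK-8617 replicates 2 and 3, and was lost in the blocked fit with length and GC trends taken out. The call of Irx1 was lost without MK-8617 replicate 3, and that of Irx2 without MK-8617 replicate 1 or 3. Fewer genes were called over the whole table without these libraries too.

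**Figure D3:**
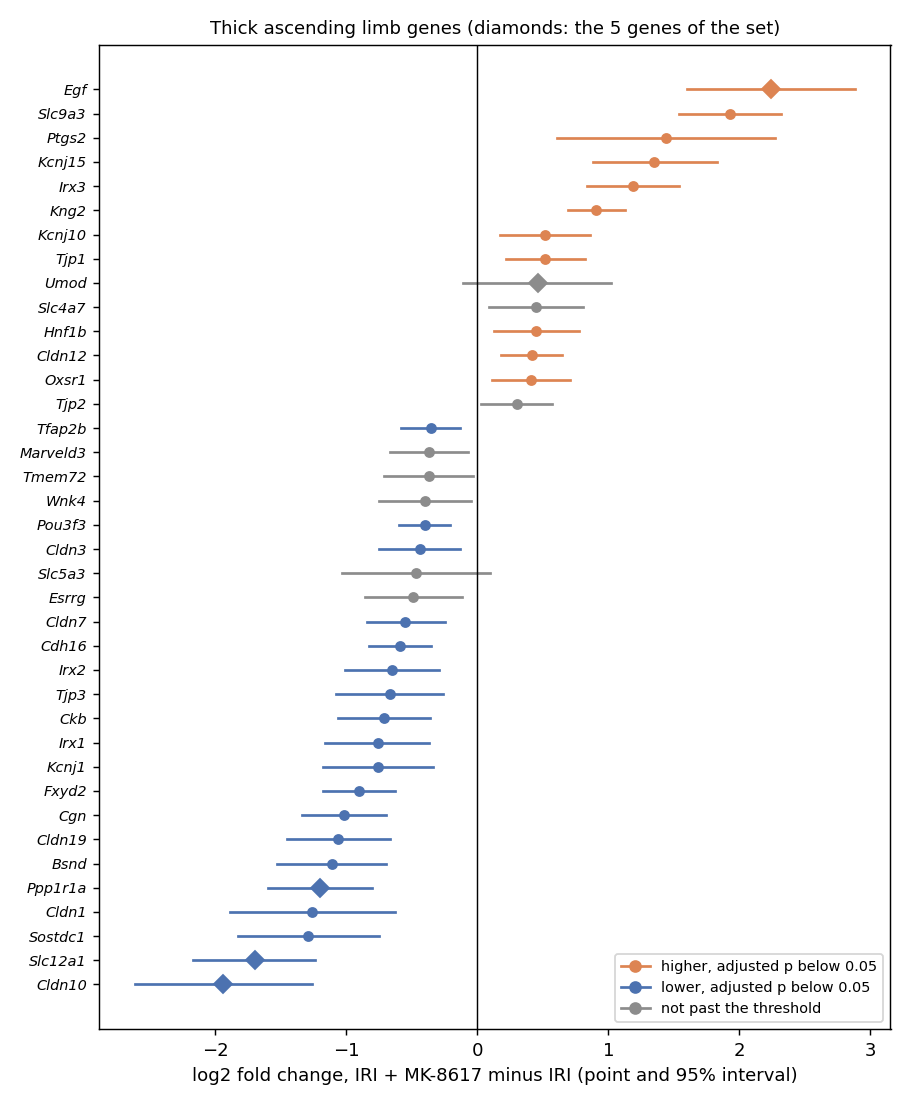
Log2 fold change (horizontal axis, IRI with MK-8617 minus IRI, point and 95% interval) of 38 of the 39 tested thick ascending limb genes, with the 5 genes of the set as diamonds; orange is higher and blue lower at an adjusted p below 0.05, grey not past the threshold. Egf is the highest at 2.24, and Slc12a1 and Cldn10 are the lowest at -1.7 and -1.94.

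Egf was followed into its receptor family. EGF and its relatives bind the ERBB receptor tyrosine kinases after being cut from the membrane, and EGF receptor signalling takes part in tubular repair. Besides Egf, 10 of 21 genes of this family were listed and tested, with 7 higher and 1 lower, against 35.7% and 38.7% of all genes tested. Their median log2 fold change was 0.67, against -0.31 for all genes. Errfi1, a feedback inhibitor of the receptor, had 6201.3, 6140.9 and 5582.9 normalised reads with IRI alone and 17844.3, 11790.1 and 17531.3 with MK-8617, a change of 1.37 ± 0.16 (SE, adjusted p = 0.00064 in limma). MK-8617 replicate 2 was the lowest of its group for 8 of these 10 genes, as it was for Egf, for 33.2% of all genes tested and for 42.0% of those called higher. Egfr, the receptor gene, rose from 982.0 ± 39.8 to 1687.0 ± 251.9 normalised reads and the ligand gene Hbegf from 728.2 ± 60.0 to 1552.2 ± 534.1 (SD, n = 3 per group). The other ligand gene called was Nrg1, a neuregulin that binds ERBB3 and ERBB4, at 0.79 ± 0.17 (SE), a call that needed MK-8617 replicate 3 and was lost with length and GC trends taken out. Erbb3 rose by 0.63 ± 0.14 (SE), and the inactive rhomboid genes Rhbdf1 and Rhbdf2, whose products carry the sheddase of the ligands to the surface, by 0.65 ± 0.1 and 0.7 ± 0.12 (SE). Erbb4, another neuregulin receptor gene, was the 1 that fell, from 244.6 ± 21.8 to 106.0 ± 36.2 normalised reads (SD, n = 3 per group). Lrig1 (0.39) and Rhbdl2 (-0.59) were not past the threshold.

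**Figure D4:**
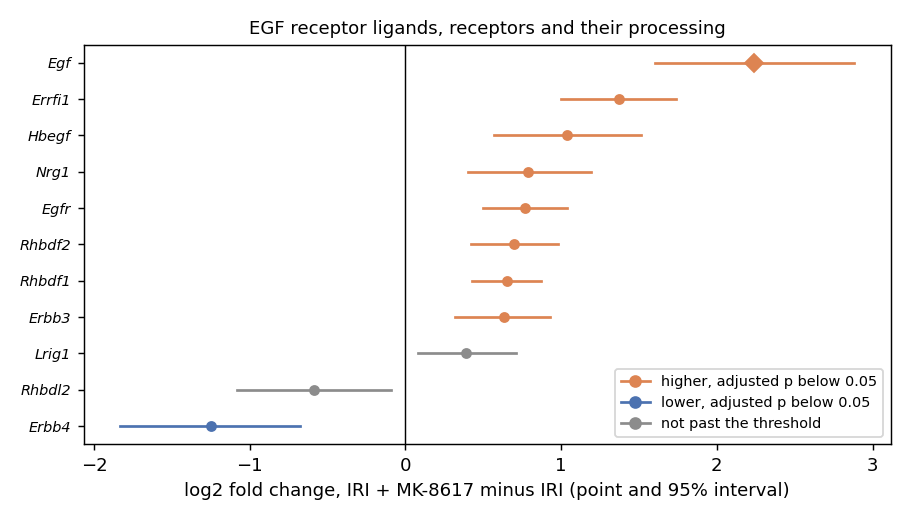
Log2 fold change (horizontal axis, IRI with MK-8617 minus IRI, point and 95% interval) of the 11 tested genes of EGF receptor ligands, receptors and their processing; orange is higher and blue lower at an adjusted p below 0.05, grey not past the threshold. Egf, drawn as a diamond, has the highest value at 2.24, and Erbb4 is the 1 gene called lower.

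Besides Ppp1r1a, genes of protein phosphatase 1 inhibitors and of the cAMP pathway were lower in 6 of 10 tested and higher in 2, against 38.7% and 35.7% of all genes tested. Their median log2 fold change was -0.67, against -0.31 for all genes. Ppp1r1b, its paralogue, had 125.9, 75.6 and 202.3 normalised reads with IRI alone and 19.5, 54.4 and 37.2 with MK-8617, a change of -1.84 ± 0.45 (SE, adjusted p = 0.015 in limma). That call needed MK-8617 replicates 1 and 3. As for Ppp1r1a, IRI replicate 2 was the lowest of its group and MK-8617 replicate 2 the highest. Ppp1r14a, an inhibitor gene of smooth muscle, was at -2.13 ± 0.27 (SE), and the catalytic subunit gene Ppp1ca at -0.64 ± 0.09 (SE). The 2 genes that rose were the cAMP phosphodiesterases Pde4b and Pde4d, by 1.35 ± 0.13 and 1.33 ± 0.15 (SE).

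The next segment also expresses Egf. Of 9 distal convoluted and connecting tubule genes tested, 5 were higher and 1 lower, against 35.7% and 38.7% of all genes tested, and their median log2 fold change was 0.63. Of those that were higher, Trpm7, a magnesium channel gene, went from 0.35 to -0.01 when length and GC trends were taken out. The lower call, of the homeobox gene Emx1, needed IRI replicates 1 and 2 and MK-8617 replicates 2 and 3. The number lower was 0 with replicate 1 of IRI, or replicate 2 or 3 of MK-8617, left out, and 2 with replicate 1 of MK-8617 left out. Trpm6, the apical magnesium channel gene, rose from 146.2 ± 48.2 to 419.8 ± 55.8 normalised reads (SD, n = 3 per group). Pvalb, the parvalbumin gene of the early distal convoluted tubule, rose from 7.26 ± 4.62 to 48.7 ± 21.7. Klk1, with the most reads of this list, went from 45007.6 ± 1670.5 to 33840.4 ± 7118.1 (SD, n = 3 per group). It was not past the threshold (-0.43, adjusted p = 0.0601 in limma). Summed normalised reads of the 9 genes were 50020 to 55245 with IRI alone and 36431 to 51491 with MK-8617. MK-8617 replicate 2, the lowest of its group for Egf, was the lowest for 4 of the 9 genes, and Pvalb was lowest in MK-8617 replicate 3. Slc12a3, the defining cotransporter gene of that segment, was not among the listed genes, and the part of this segment in the Egf value was not tested.

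Markers of other cells moved between the groups too, and their part in the values above was not tested. Summed normalised reads of the 14 listed proximal tubule genes were 57521 to 125735 with IRI alone and 222105 to 238849 with MK-8617, with 8 genes higher, 2 lower (Gatm and Gsta2) and 4 not called. Without MK-8617 replicate 1 or 3, 5 were higher. For 9 fibroblast and pericyte genes the sums were 25397 to 40578 and 8610 to 11591, with 8 genes lower and 1 (Dcn) higher, a call that needed MK-8617 replicates 1 and 3 and was lost with length and GC trends taken out. For 13 macrophage and monocyte genes they were 4577 to 7726 and 3931 to 4733, with 11 lower and 1 (Cd14) higher. Cd14 held a large part of the MK-8617 sums, at 2431.6 ± 135.5 against 710.7 ± 54.3 with IRI alone (SD, n = 3 per group). The median log2 fold change of the 13 genes was -1.33. Of 11 collecting duct genes tested, 1 was higher and 7 were lower, with a median log2 fold change of -1.12. Over all genes tested 38.7% were lower and 35.7% higher. None of the listed genes of these lists was at 0 in every library. The labels name no batch, so no within-batch value can be given.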

How the data were processed

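The submitters' processing notes name HISAT2 2.0.5, DESeq2 1.20.0, CASAVA 1.8, featureCounts 1.5.0-p3 and fastp. The same notes give a human build (GRCh38, hg38), although the gene identifiers are mouse. The deposited signal values are the authors' gene counts over a single size factor for each library, and group means stand beside them. Whole reads were recovered for 100% of values (tolerance 0.001), and they equalled the deposited raw count of IRI replicate 3 in 7340 of 7340 genes. On these reads edgeR's quasi-likelihood test called 5208 of 6961 genes. Gene coordinates are those of GENCODE M21 (GRCm38), matched by gene identifier. Library totals came from the deposited FPKM and GENCODE M21 exon lengths (same total for 95.1% of genes). Also deposited were the authors' own p-values, both raw and adjusted, and their log2 fold change.

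Since the values are normalised, limma 3.58.1 (R 4.3.3, trend and robust) was run on log2(value + 1) after filterByExpr of edgeR 4.0.16, leaving 6961 of 7340 genes. Fold changes on this scale understate those of low genes. P-values were adjusted by Benjamini-Hochberg over 18811 genes, a family size inferred from the authors' raw and adjusted p-values, at a threshold of 0.05. Alternatives were edgeR, DESeq2 1.42.0 and limma-voom on recovered reads, FPKM, pseudocounts, filters, the table alone as family, a replicate block, length and GC trends (splines on exon length and transcript GC) and leaving out each library. Named genes were the set, the called genes with the smallest adjusted p of each list, and the 3 nearest patterns per member. Other listed members of the thick ascending limb, EGF and phosphatase lists were named too. Trpm7, Emx1, Klk1, Gatm, Gsta2, Dcn and Cd14 were named after their values were seen. The collecting duct list was brought in after its values were seen. Of 14 lists, those on podocyte (3 and 1 of 5), endothelium (1 and 0 of 3), neutrophil and lymphocyte (0 and 2 of 2) and tubular injury (7 and 10 of 21) markers were not used further (higher and lower of those tested). The values of 1 gene of the salt transport list, which is in the counts, are not reported here. Members and lists were chosen with earlier results of these data known. The 13 columns without names hold no values and were not used.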

Additional observations from a re-analysis of the deposited data

How the results depend on the processing

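Under all 18 alternatives Slc12a1, Cldn10, Ppp1r1a and Egf kept their direction and stayed past the threshold, and Umod stayed short of it. The log2 fold change ranged from -1.95 to -1.5 for Slc12a1, -2.31 to -1.66 for Cldn10, -1.38 to -0.81 for Ppp1r1a, 1.95 to 2.5 for Egf and 0.21 to 0.7 for Umod, with the highest adjusted p at 0.00901, 0.0186, 0.0161, 0.0107 and 1.0. The value of -0.81 came with length and GC trends removed, which raised the median of all tested genes by 0.11. Leaving out 1 library gave 3412 to 5144 called genes, 1488 to 2446 of them higher, and, among thick ascending limb genes outside the set, 4 to 8 higher and 11 to 18 lower. The lowest counts came without MK-8617 replicate 1 or 3. By list (genes outside the set), leaving out 1 library gave 2 to 3 higher and 2 to 5 lower for salt transport, 0 to 3 and 3 to 6 for tight junctions, 2 to 4 and 5 to 8 for identity, 6 to 7 and 1 for the EGF receptor family, 2 and 5 to 7 for phosphatase inhibitors, 4 to 6 and 0 to 2 for distal tubule, 5 to 11 and 2 for proximal tubule, 0 to 1 and 7 to 8 for fibroblasts, and 1 and 9 to 12 for macrophages. With p-values adjusted over the table alone, 2 genes of the EGF receptor family and 3 distal genes were lower, since fewer genes enter the adjustment. Salt transport genes called higher were 2 on log2(FPKM + 0.1) and 2 with length and GC trends removed. With those trends removed, with and without the block, 1 tight junction gene and 0 fibroblast genes were higher, and the cause was not tested. Trpm7, a magnesium channel gene of the distal list, was at -0.01 with length and GC trends removed, with and without the block, against 0.35. Deviations of same-numbered libraries correlated at 0.021, 0.116 and 0.115, and those of libraries with different numbers at -0.129 to 0.02. Values this small cannot tell whether the numbers in the titles pair the libraries. With the replicate block 5257 genes were called against 5173, Slc12a1 was at -1.7 with an adjusted p of 0.00204 and Egf at 2.24 with 0.000219, and the block changed the call of none of the 5 genes. For the other 153 genes named or in a list, 2447 values kept their side of the threshold. With the sign kept, 176 lost a call and 115 gained one. A further 2 changed sign where the gene was called in the main or the alternative fit. With 3 samples per group and a table selected at p below 0.05, genes outside it have no direction here. The number of reads did not limit the members, the lowest of which had 187.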
